A study of Mus musculus with 6 samples.

Results

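The genes described here are 43 symbols of glucose metabolism and of the response to low oxygen, followed through RNA sequencing of BV2 cells, a mouse microglial line that grows indefinitely in culture. They were found by symbol in the deposited annotated expression table, which holds 25032 genes, and 42 of the 43 symbols had a row. Adm, the gene of the vasodilator peptide adrenomedullin, had none, and its row of the count table held 0 reads in every library, which allows up to 3 reads per library. Aldoa had 2 rows, so 43 rows were followed: 27 rows of 26 glycolytic genes and 16 rows of oxygen-sensing genes and target genes of hypoxia-inducible factor (HIF). There were 3 libraries from BV2 cells overexpressing GFP, a fluorescent control protein, and 3 from BV2 cells overexpressing TDP43-NLS, described in the study's design as TDP-43 with a mutated nuclear localisation signal. All cells were grown in the same serum-containing medium in a humidified CO2 incubator, and no oxygen level or low-oxygen treatment is given for either group. The labels give no promoter, species or clone for the overexpressed proteins, and they leave unsaid whether replicates were separate cultures, so p-values measure the spread between these libraries, which may be technical.

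Glycolysis turns glucose into pyruvate in the cytosol: transporters admit glucose, hexokinase traps it, phosphofructokinase commits it, and the later enzymes recover energy before lactate dehydrogenase and the monocarboxylate transporters dispose of the product. HIF is a transcription factor whose alpha subunit is marked by prolyl hydroxylases when oxygen is present and then destroyed through the VHL ubiquitin ligase. When the subunit escapes, HIF raises transcription of many glycolytic genes and of genes of vessel growth, mitophagy and protein folding, and activated macrophages and microglia are known to raise glycolysis as well.

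The libraries held between 15062131 and 18005592 counted reads. Tardbp, the mouse gene of TDP-43, stood lower where the label is TDP43-NLS (377 ± 9.62 CPM against 451 ± 24 CPM in GFP libraries, SD, n = 3 each; log2 fold change -0.26, adjusted p = 0.000291), so directions below rest on the labels. Of 13199 genes tested, 7589 differed between the groups, so a call alone does not set a gene apart. The general microglia and macrophage markers Cd68, Csf1r and Ptprc had group means between 234 and 887 CPM, while P2ry12 and Tmem119, markers of resting brain microglia, did not exceed 3.79 CPM in either group. The summed level of 12 such markers ran from 2380 to 2485 CPM in GFP libraries and from 2511 to 2548 CPM in TDP43-NLS libraries. Of 15 markers of astrocytes, neurons, oligodendrocytes, endothelium and fibroblasts, 10 had a read in some library, with a sum of 1.94 to 2.43 CPM in GFP libraries and 4.65 to 5.24 CPM in TDP43-NLS libraries, and Aqp4, Rbfox3, Snap25, Syt1 and Mog had no read. The part of these low marker levels in the results below was not tested. In RNA from whole cultures, a change in how many cells express a gene and a change in RNA per cell cannot be told apart. GFP replicate 2 was the GFP library that stood most apart: it was the lowest of the 3 in 14 of 25 tested glycolytic rows and in 8 of 16 oxygen-sensing and HIF target rows, and the highest in 10 and 5.

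Most of the members were higher in the libraries labelled TDP43-NLS. Of 41 rows with enough reads to be tested, 28 rose, 5 fell and 8 passed no threshold, beside 57.5% of all tested genes that were called either way, 29.3% that rose and 28.2% that fell (edgeR's quasi-likelihood test, Benjamini-Hochberg adjusted p under 0.05). The rows that rose make up 68.3% of those tested and the rows that fell 12.2%. The groups did not overlap in 33 of the 41 rows, against 63.2% of all tested genes. With a called log2 fold change no smaller than 0.5, 12 rows rose and 0 fell, while 13.9% of all tested genes rose and 10.4% fell by that much. The lowest log2 fold change among tested members was -0.39.

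Glucose transport and glycolysis had 17 of 25 tested rows higher and 3 lower, with a median log2 fold change of 0.29. Oxygen-sensing genes and HIF targets had 11 of 16 higher and 2 lower, with a median of 0.43. The median over all tested genes was 0.00. Without GFP replicate 2, the calls were 16 higher and 4 lower among glycolytic members and 11 higher and 2 lower in the other group. Those 4 include Pdk3, which had too few reads for the test on all libraries. For 10 of the 41 tested rows, genes within 10 Mb had a median log2 fold change beyond 0.1 either way (Slc2a6, Hk3, Pfkfb3, Pfkfb4, Pgam1, Pkm, Hif1a, Egln3, Ankrd37 and Higd1a). Glycolytic genes took 1.68% ± 0.0481 of all reads in GFP libraries and 1.99% ± 0.0209 in TDP43-NLS libraries, and the other group took 0.0904% ± 0.00069 and 0.125% ± 0.00343 (SD, n = 3 each). Nearly all reads of the set thus came from glycolytic genes.

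**Figure D1:**
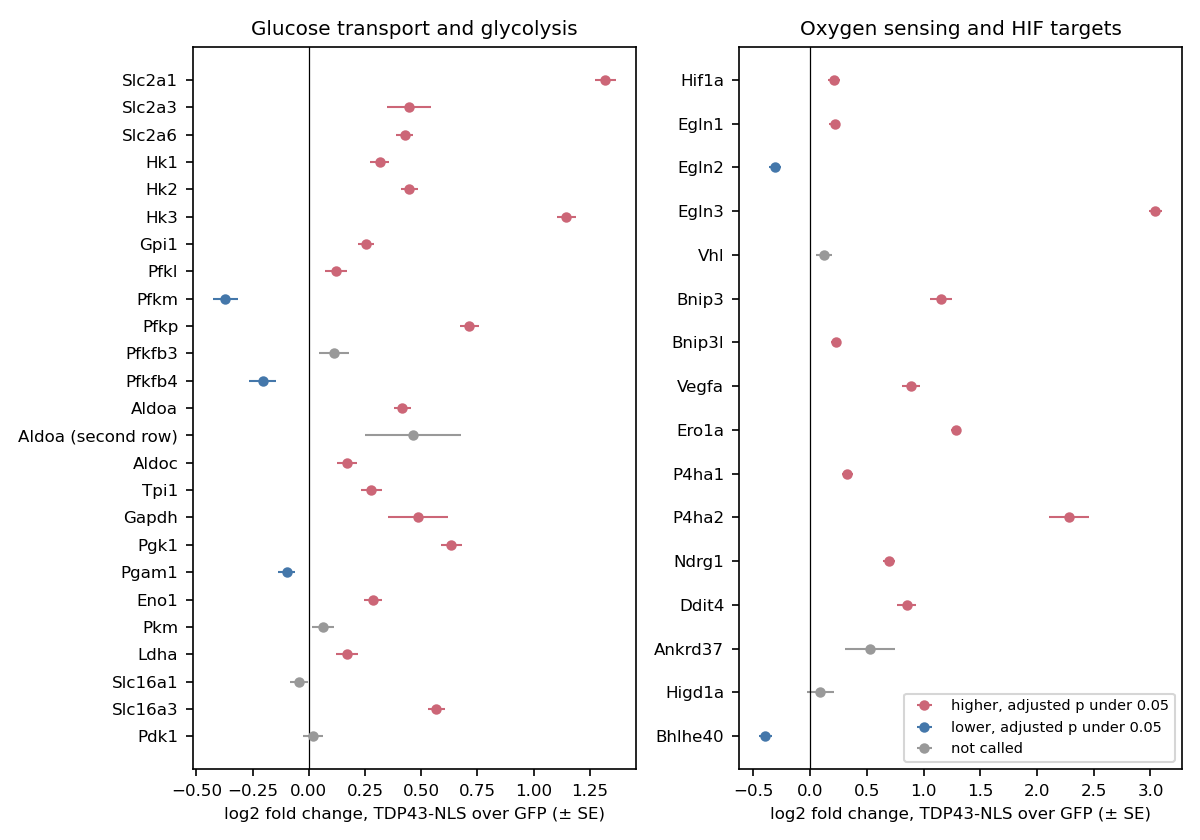
Fitted log2 fold change (TDP43-NLS over GFP) with its standard error for the 25 tested glycolytic rows (left) and the 16 tested oxygen-sensing and HIF target rows (right), on different x ranges; red points rose, blue points fell and grey points passed no threshold. Egln3 and P4ha2 stand furthest to the right, at 3.04 and 2.28, and the blue points are Pfkm, Pfkfb4, Pgam1, Egln2 and Bhlhe40.

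At glucose entry, all 3 transporter genes rose. Slc2a1 (ENSMUSG00000028645, GRCm39 chromosome 4, 118965908 to 118995180, plus strand) encodes GLUT1, the broadly expressed glucose transporter. It stood at 97.0, 107 and 98.7 CPM (reads relative to the library's scaled total) in GFP replicates 1 to 3 and at 255, 255 and 247 CPM in TDP43-NLS replicates 1 to 3. Every TDP43-NLS library was above every GFP library by more than the whole spread within a group. The log2 fold change of Slc2a1 was 1.32 (SE 0.05, adjusted p = 7.82e-11). Slc2a6, the gene of GLUT6, rose by 0.43 on the log2 scale from 127 ± 0.869 to 171 ± 1.10 CPM, and Slc2a3, the gene of the high-affinity transporter GLUT3, by 0.45 from 10.5 ± 1.26 to 14.4 ± 0.651 CPM (SD, n = 3 each).

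The promoter of Slc2a1 is shown because this gene rose most among glycolytic members, and its core letters of the HIF binding element can be read in it. The sequence is from RefSeq's GRCm38.p6 table, an earlier build than that of the gene positions, and runs from 250 bases before to 50 after the transcript start (chr4:119108495-119108794, plus strand). Capitals mark ACGTG and GCGTG or their reverse complements, CACGT and CACGC, of which it holds 2 matches.
Slc2a1: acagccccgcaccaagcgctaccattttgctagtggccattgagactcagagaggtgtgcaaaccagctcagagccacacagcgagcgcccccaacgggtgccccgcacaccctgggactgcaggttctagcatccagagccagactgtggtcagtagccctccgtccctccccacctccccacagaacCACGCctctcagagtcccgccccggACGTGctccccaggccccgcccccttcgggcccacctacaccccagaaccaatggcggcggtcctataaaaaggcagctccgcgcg

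Hexokinase, the step that phosphorylates glucose, rose through all 3 of its genes. Hk3, the hexokinase typical of myeloid cells, had 283, 276 and 296 CPM in the GFP libraries and 650.3, 634 and 609 CPM in the TDP43-NLS libraries. Even the lowest TDP43-NLS library was far above the highest GFP library. Its log2 fold change was 1.15 (SE 0.04, adjusted p = 1.41e-10), against 0.45 for Hk2 (adjusted p = 4.98e-07) and 0.32 for Hk1 (adjusted p = 2.62e-05). Hk2 is the hexokinase usually tied to inducible glycolysis, and it stood at 212 ± 4.89 and 289 ± 3.61 CPM (SD, n = 3 each). Per length, Hk3 was the most abundant hexokinase in both groups, at 78.3 and 169 FPKM.

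The phosphofructokinase genes moved apart. Pfkp, the platelet-type subunit, had 277, 259.9 and 278 CPM in GFP libraries and 434, 457 and 446 CPM in TDP43-NLS libraries, a log2 fold change of 0.71 (SE 0.04, adjusted p = 1.29e-08). Pfkm, the muscle-type subunit, had 58.0, 54.9 and 61.7 CPM against 44.4, 44.7 and 45.8 CPM, a log2 fold change of -0.37 (SE 0.06, adjusted p = 7.25e-05). The groups did not overlap for either gene, and the 2 subunits changed in opposite directions. Pfkl, the liver-type subunit and the most abundant of the 3 per length, had 315, 279 and 309.9 CPM against 322, 339 and 324 CPM. Its log2 fold change of 0.12 barely passed (adjusted p = 0.0498) and failed in 12 of the 14 alternatives that carry a test, with adjusted p up to 0.219 in tests against no change. The 12 include a test against a log2 fold change of 0.5, which so small a change cannot pass. Pfkfb3 and Pfkfb4 make and remove the sugar phosphate that activates phosphofructokinase: Pfkfb3 had 43.7 ± 2.27 and 47.2 ± 3.83 CPM (adjusted p = 0.167 for a log2 fold change of 0.11), and relative to the 10 Mb around it its log2 fold change was 0.00. Pfkfb4 was lower, at 33.6 ± 1.40 and 29.2 ± 1.45 CPM (SD, n = 3 each; log2 fold change -0.21, adjusted p = 0.0116). The 10 Mb around Pfkfb4 on chromosome 9 had a median log2 fold change of -0.28, and relative to it Pfkfb4 was at 0.08.

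Gpi1, phosphoglucose isomerase, had 908, 931 and 929 CPM in GFP libraries and 1102, 1118 and 1080.2 CPM in TDP43-NLS libraries. Its log2 fold change was 0.25 (SE 0.04, adjusted p = 5.6e-05). Aldoa, the main aldolase, which splits the sugar, had 1293, 1222 and 1302 CPM against 1725, 1689 and 1679 CPM, a log2 fold change of 0.42 (SE 0.04, adjusted p = 1.02e-06). Both genes were higher in every TDP43-NLS library than in any GFP library. Another row under the same symbol (ENSMUSG00000114515), next to the first on chromosome 7, held only 1.46 ± 0.206 and 2.00 ± 0.371 CPM and did not pass (adjusted p = 0.0794). Aldoc, the brain-type aldolase, rose by 0.17 on the log2 scale, from 128 ± 5.29 to 144 ± 1.92 CPM (SD, n = 3 each; adjusted p = 0.00492).

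Tpi1, triose phosphate isomerase, had 995, 882 and 985 CPM against 1143, 1164 and 1163 CPM (log2 fold change 0.28, SE 0.05, adjusted p = 0.000213). Pgk1, phosphoglycerate kinase, is a step that yields ATP and had the largest rise of the enzymes between aldolase and lactate dehydrogenase. It had 1243, 1111 and 1249.7 CPM in GFP libraries and 1857, 1859 and 1876 CPM in TDP43-NLS libraries, a log2 fold change of 0.63 (SE 0.05, adjusted p = 1.02e-07). GFP replicate 2 was the lowest library for both genes, and the TDP43-NLS libraries lay close together. Eno1, enolase, had 2607, 2705 and 2624 CPM against 3359, 3167 and 3151 CPM (log2 fold change 0.29, SE 0.04, adjusted p = 3.33e-05). Eno2, the neuronal enolase, had 0 reads in GFP libraries and 3 in TDP43-NLS libraries, too few for the main test's filter or for a fold.

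Gapdh, a gene often used as a reference for expression, was the most scattered of the abundant members. It had 235, 351 and 276 CPM in GFP libraries and 482, 392 and 334 CPM in TDP43-NLS libraries. The groups overlapped, since GFP replicate 2 was above TDP43-NLS replicate 3. The log2 fold change was 0.48 (SE 0.13, adjusted p = 0.00707 in edgeR). With DESeq2 the call was lost (adjusted p = 0.0921), as it was with limma on log2(FPKM + 1) (adjusted p = 0.0729). Leaving out 1 library moved the log2 fold change between 0.34 (without TDP43-NLS replicate 1) and 0.65 (without GFP replicate 2). The sources used here do not say how reads matching several places were counted, and near-copies of Gapdh are in the table: Gapdh-ps16 had 4.67 to 5.65 CPM in GFP libraries and 7.42 to 9.89 CPM in TDP43-NLS libraries.

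Pgam1, phosphoglycerate mutase, was the only one of the 10 enzyme steps from hexokinase to pyruvate kinase whose most abundant gene was called lower. It had 812, 850.0 and 822 CPM in GFP libraries and 764, 765 and 791 CPM in TDP43-NLS libraries. The groups were next to each other without overlap, and the log2 fold change of -0.10 (SE 0.04, adjusted p = 0.0423) failed in 8 of the 14 alternatives that carry a test. These include a test against a log2 fold change of 0.5, which so small a change cannot pass. The median log2 fold change of the 10 Mb around it on chromosome 19 was also -0.10.

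Pkm, pyruvate kinase, did not pass, at 4105, 3604 and 4092 CPM against 4128, 4135 and 4056 CPM. Only GFP replicate 2 stood below the rest, and the log2 fold change was 0.06 (SE 0.05, adjusted p = 0.293). Genes within 10 Mb of Pkm on chromosome 9 had a median of -0.16, relative to which Pkm was at 0.22. Ldha, the lactate dehydrogenase subunit that favours lactate formation, had 2242, 1973 and 2223 CPM against 2378, 2449.7 and 2419 CPM. It rose by 0.17 on the log2 scale (SE 0.05, adjusted p = 0.0084), a call that was lost with limma on log2(FPKM + 1) (adjusted p = 0.0878).

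At the exit, Slc16a3 rose and Slc16a1 did not pass. Slc16a3, the gene of MCT4, a transporter of strongly glycolytic cells, had 306, 317 and 316 CPM in GFP libraries and 460.4, 471 and 462 CPM in TDP43-NLS libraries. Its log2 fold change was 0.57 (SE 0.04, adjusted p = 4.26e-08). Slc16a1, the gene of MCT1, stood at 228 ± 6.71 and 221 ± 0.569 CPM (SD, n = 3 each; log2 fold change -0.04, adjusted p = 0.377). Pdk1, a kinase that shuts pyruvate out of mitochondrial oxidation and is a well-known HIF target, had 144, 154 and 145 CPM against 145, 149 and 153 CPM, and its adjusted p was 0.755. Pdk3, a kinase of the same family, had 13, 9 and 14 reads in GFP libraries and 0, 1 and 0 reads in TDP43-NLS libraries. That is 36 reads against 1, a ratio after depth scaling of 36.9 with an exact 95% interval of 6.22 to 1499 that covers counting error only, and the low-count filter of the main test left the gene out. In the 6 alternatives that tested it (DESeq2, no low-count filter, and without GFP replicate 2 or any 1 TDP43-NLS replicate), Pdk3 was called lower each time, with adjusted p of 0.000745 in DESeq2 and at most 0.000879. With a library left out, Pdk3 passed the filter only through its GFP reads, the group where it was high. All 6 reuse the same few reads, so they are not separate support.

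FPKM values, which are reads scaled by depth and gene length, allow the genes of a step to be added. They use each library's plain total, not the scaled total behind the CPM values, so their ratios here lie slightly lower. The summed FPKM went, without overlap, from 70.7 ± 1.47 to 125 ± 1.59 for the 3 glucose transporters and from 138 ± 1.98 to 245 ± 6.42 for hexokinase (SD, n = 3 each), ratios of 1.77 and 1.78. The next largest ratio among glycolytic steps was 1.51, for phosphoglycerate kinase. Ratios for aldolase, the monocarboxylate transporters, enolase, triose phosphate isomerase, phosphoglucose isomerase, phosphofructokinase and lactate dehydrogenase lay between 1.10 and 1.28. The phosphoglycerate mutase sum was at 0.911 and the PFKFB sum at 0.940 of its GFP level. Pgam1, the only gene in the phosphoglycerate mutase sum, was at 0.934 of its GFP level in the edgeR fit. Pyruvate kinase (ratio 1.02) and pyruvate dehydrogenase kinase (0.973) overlapped between groups, as did GAPDH (1.37). Of 18 steps and families summed, the 3 families of the HIF group included, 15 did not overlap, beside the 63.2% of single tested genes. The exact two-sided permutation test over libraries gave p = 0.1 for these 15, the smallest value 3 against 3 libraries allow.

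**Figure D2:**
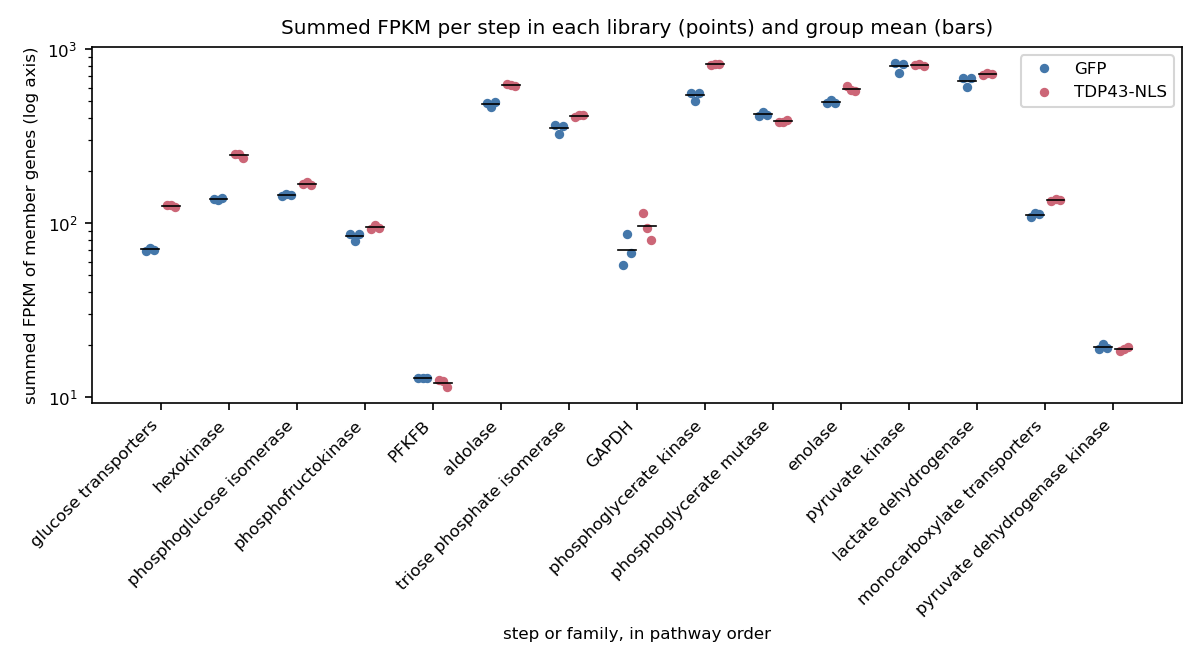
Summed FPKM of the member genes of each glycolytic step or transporter family (log axis), in pathway order; points are libraries and bars group means. The gap between the groups is widest at the glucose transporters and hexokinase (ratios 1.77 and 1.78), phosphoglycerate mutase and PFKFB are lower in TDP43-NLS, and GAPDH, pyruvate kinase and pyruvate dehydrogenase kinase overlap.

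Which gene supplied a step changed along with the sums. Slc2a1 went from 41.2% ± 1.48 to 56.6% ± 0.383 of the summed transporter FPKM, and Slc2a6, the larger share in GFP libraries, from 56.7% ± 1.25 to 41.9% ± 0.433. Hk3 went from 56.8% ± 1.06 to 68.9% ± 0.66 of hexokinase, while Hk2 went from 26.0% ± 0.854 to 19.4% ± 0.416 although its own level rose. Pfkp went from 24.5% ± 0.423 to 34.7% ± 0.198 of phosphofructokinase, and Pfkm from 21.0% ± 0.615 to 14.1% ± 0.379. Slc16a3 went from 53.4% ± 0.332 to 63.6% ± 0.316 of the monocarboxylate transporter sum (SD, n = 3 for all these shares). Of 27 shares compared, those of 24 rows did not overlap between groups (63.2% of all tested genes did not overlap in level), each with an exact permutation p of 0.1, and the exceptions were the second Aldoa row, Eno1 and Eno2. Genes of 1 step share a sum, so their shares are not independent of each other.

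**Figure D3:**
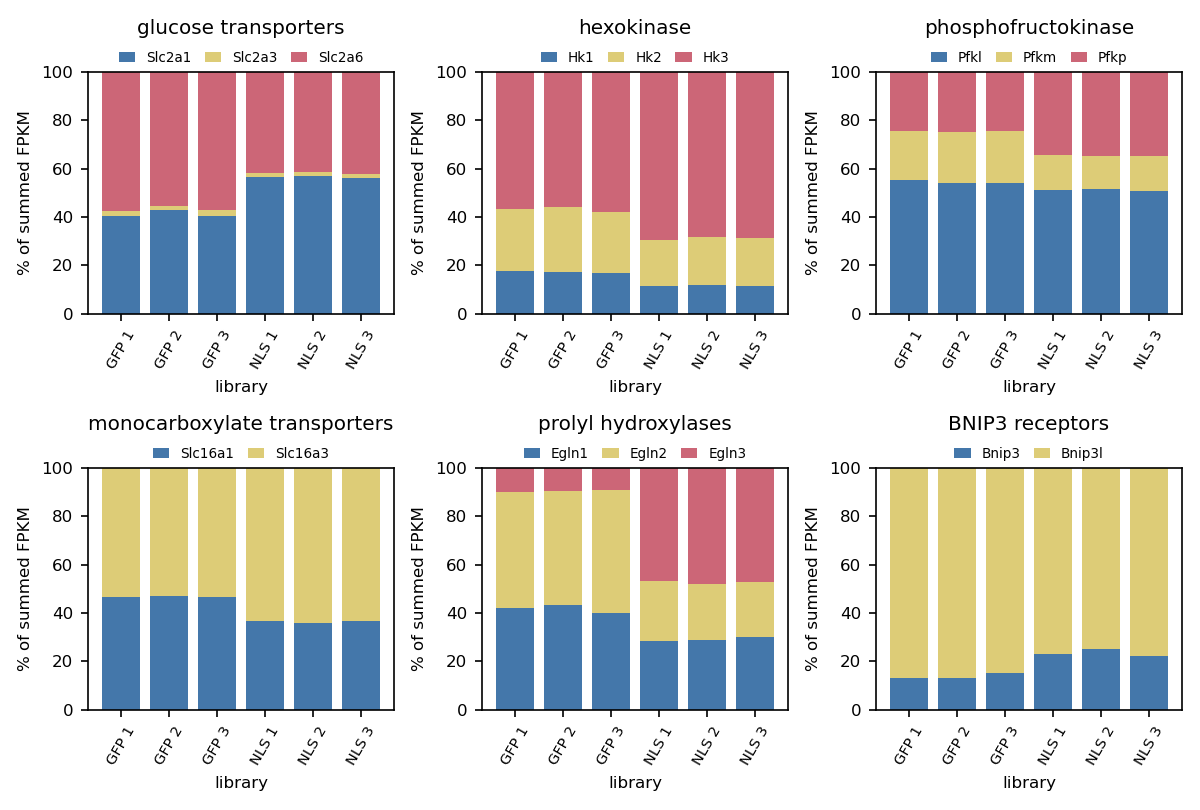
Share of the summed FPKM taken by each gene in 6 families, one stacked bar per library (NLS stands for TDP43-NLS), from 0 to 100%. Slc2a1, Hk3, Pfkp, Slc16a3, Egln3 and Bnip3 take a larger share in all 3 TDP43-NLS libraries than in any GFP library.

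The oxygen-sensing members changed unequally. Egln3 (ENSMUSG00000035105, GRCm39 chromosome 12, 54225767 to 54250646, minus strand) encodes PHD3, a prolyl hydroxylase whose own gene is a HIF target. It had 12.3, 12.1 and 11.7 CPM in GFP libraries and 96.1, 102 and 98.9 CPM in TDP43-NLS libraries. Both groups were tight and lay far apart, with means of 12 ± 0.308 and 99 ± 2.94 CPM (SD, n = 3 each) and a log2 fold change of 3.04 (SE 0.06, adjusted p = 2.76e-13). Genes within 10 Mb of it had a median log2 fold change of 0.28, which leaves 2.76 for Egln3 relative to them.

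Egln1, the gene of PHD2, the main hydroxylase of HIF in most cells, had 70.9, 74.4 and 67.9 CPM against 79.2, 83.3 and 84.8 CPM (log2 fold change 0.22, SE 0.05, adjusted p = 0.00273). Egln2, the gene of PHD1, had 62.7, 62.7 and 67.4 CPM against 54.0, 51.5 and 49.8 CPM (log2 fold change -0.31, SE 0.05, adjusted p = 0.000222). The 3 hydroxylase genes thus went up strongly, up slightly and down. Their summed FPKM went from 47.8 ± 0.522 to 77.5 ± 1.38. Within that sum Egln3 went from 9.56% ± 0.308 to 47.3% ± 0.658, Egln2 from 48.6% ± 2.01 to 23.5% ± 1.2 and Egln1 from 41.9% ± 1.82 to 29.2% ± 0.808 (SD, n = 3 each).

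Hif1a, the gene of the main HIF alpha subunit, had 119.5, 129 and 124 CPM in GFP libraries and 140.4, 138 and 153 CPM in TDP43-NLS libraries. The groups did not overlap, and the log2 fold change was 0.21 (SE 0.05, adjusted p = 0.00326). Its 10 Mb neighbourhood, on the same chromosome as Egln3, had a median of 0.15, which leaves 0.06 for Hif1a relative to it. The alpha subunit is regulated mainly as a protein, which was not measured here. Vhl, the substrate-recognising part of the ubiquitin ligase, had 18.1, 17.0 and 18.1 CPM against 18.9, 20.7 and 18.4 CPM and did not pass (log2 fold change 0.12, SE 0.07, adjusted p = 0.175).

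The promoters of Egln3, which rose most, and of Egln2, which fell, are shown side by side (RefSeq, GRCm38.p6, minus strand, shown 5′ to 3′ along the gene; capitals as for Slc2a1). Egln3 (chr12:54203825-54204124) holds 1 match. The upstream one of 2 listed starts of Egln2 (chr7:27166753-27167052) holds 6, among them a CACGTG, which reads as a match on both strands. The other Egln2 start (chr7:27165679-27165978, not shown) holds 1, as Egln3 does.
Egln3: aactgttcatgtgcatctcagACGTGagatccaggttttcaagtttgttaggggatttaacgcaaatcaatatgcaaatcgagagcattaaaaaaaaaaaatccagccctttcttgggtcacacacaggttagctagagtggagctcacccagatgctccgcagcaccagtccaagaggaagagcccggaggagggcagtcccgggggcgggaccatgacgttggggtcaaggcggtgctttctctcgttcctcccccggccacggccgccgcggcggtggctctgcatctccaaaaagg
Egln2: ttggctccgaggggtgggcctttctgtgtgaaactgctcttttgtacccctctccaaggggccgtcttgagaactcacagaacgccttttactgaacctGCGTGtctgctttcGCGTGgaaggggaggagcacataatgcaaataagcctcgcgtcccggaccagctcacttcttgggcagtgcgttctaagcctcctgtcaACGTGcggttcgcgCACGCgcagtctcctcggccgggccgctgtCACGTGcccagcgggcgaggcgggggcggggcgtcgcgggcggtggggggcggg

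HIF targets outside glycolysis were mostly higher: 8 of 11 tested rose, Bhlhe40 fell, and Ankrd37 and Higd1a did not pass. Their median log2 fold change was 0.70, against 0.21 for the 5 oxygen-sensing genes, which include Egln3, itself a HIF target. Bnip3, a receptor that marks mitochondria for autophagy, had 9.85, 9.70 and 12.3 CPM against 22.6, 25.4 and 22.9 CPM (log2 fold change 1.15, SE 0.10, adjusted p = 3.54e-07). Its relative Bnip3l rose by 0.23 on the log2 scale, from 112 ± 4.34 to 132 ± 3.46 CPM (adjusted p = 0.00067). Bnip3 went from 13.9% ± 1.21 to 23.4% ± 1.43 of their summed FPKM, so Bnip3l was the more abundant receptor gene in both groups (SD, n = 3 each).

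Vegfa, the gene of a secreted growth factor for blood vessels, had 41.3, 54 and 45 CPM in GFP libraries and 87.3, 91.7 and 81.0 CPM in TDP43-NLS libraries. GFP replicate 2 was the highest GFP library here, still well under the lowest TDP43-NLS library. The log2 fold change of Vegfa was 0.89 (SE 0.08, adjusted p = 8.75e-07).

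All 3 genes of protein folding and collagen hydroxylation rose. Ero1a, the oxidase that drives disulphide formation in the endoplasmic reticulum, had 89.8, 91.1 and 90.3 CPM against 209, 224 and 226 CPM. The GFP libraries differed by little more than 1 CPM and the TDP43-NLS libraries were all far above them (log2 fold change 1.28, SE 0.04, adjusted p = 6.37e-11). P4ha2, a catalytic subunit of collagen prolyl hydroxylase, was rare, with 1.09, 1.01 and 1.31 CPM against 5.26, 6.24 and 5.18 CPM, and had a log2 fold change of 2.28 (SE 0.18, adjusted p = 1.53e-07). P4ha1, the sister subunit, rose by 0.33 on the log2 scale, from 139 ± 3.51 to 174 ± 9.62 CPM (SD, n = 3 each; adjusted p = 5.67e-05). P4ha1 took 97.9% of the summed FPKM of the pair in TDP43-NLS libraries, against 99.5% in GFP libraries, so the large fold of P4ha2 concerned a minor transcript.

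The promoters of Ero1a (chr14:45318523-45318822, minus strand) and P4ha2 (chr11:54100674-54100973, plus strand) are shown as those of the HIF targets with the largest fold changes outside oxygen sensing. They hold 3 and 4 matches of the same letters in the same RefSeq table.
Ero1a: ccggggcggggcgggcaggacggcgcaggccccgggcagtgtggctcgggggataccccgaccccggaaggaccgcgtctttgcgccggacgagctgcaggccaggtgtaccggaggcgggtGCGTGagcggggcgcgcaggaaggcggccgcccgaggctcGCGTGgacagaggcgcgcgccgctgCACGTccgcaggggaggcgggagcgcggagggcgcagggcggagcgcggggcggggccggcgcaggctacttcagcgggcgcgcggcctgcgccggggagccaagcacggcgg
P4ha2: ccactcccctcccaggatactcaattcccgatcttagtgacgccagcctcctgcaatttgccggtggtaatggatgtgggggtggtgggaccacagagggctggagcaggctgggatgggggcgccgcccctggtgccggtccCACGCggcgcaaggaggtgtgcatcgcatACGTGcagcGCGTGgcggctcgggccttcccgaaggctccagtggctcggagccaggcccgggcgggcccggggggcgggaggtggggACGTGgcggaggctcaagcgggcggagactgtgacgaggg

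Ndrg1, a stress-responsive gene of growth control, had 56.1, 53.4 and 57.9 CPM against 87.7, 92.7 and 90.7 CPM (log2 fold change 0.70, SE 0.05, adjusted p = 7.45e-08). Ddit4, the gene of REDD1, an inhibitor of the growth kinase complex mTORC1, had 17.3, 15.1 and 15.5 CPM against 29.5, 30.6 and 26.1 CPM (log2 fold change 0.85, SE 0.08, adjusted p = 1.12e-06). The groups were clearly separate for both.

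Bhlhe40, a transcriptional repressor, was the HIF target that went the other way, with 88.7, 100.0 and 92.2 CPM against 67.5, 72.5 and 73.5 CPM (log2 fold change -0.39, SE 0.06, adjusted p = 4.44e-05). Ankrd37, an ankyrin-repeat gene, had 3.28, 1.66 and 2.17 CPM against 3.10, 3.09 and 3.92 CPM, and the groups overlapped through GFP replicate 1 (log2 fold change 0.53, SE 0.22, adjusted p = 0.0568). Without that library its adjusted p was 0.00545 and the log2 fold change 0.82. Higd1a, the gene of a small mitochondrial protein, had 42.8, 27.3 and 39.1 CPM against 38.9, 38.6 and 38.6 CPM. GFP replicate 2 alone was low, and without it the log2 fold change of 0.09 (adjusted p = 0.536) became -0.08. Genes within 10 Mb of Higd1a had a median of -0.23, relative to which it was at 0.32, and for Ankrd37 these values were 0.16 and 0.36.

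**Figure D4:**
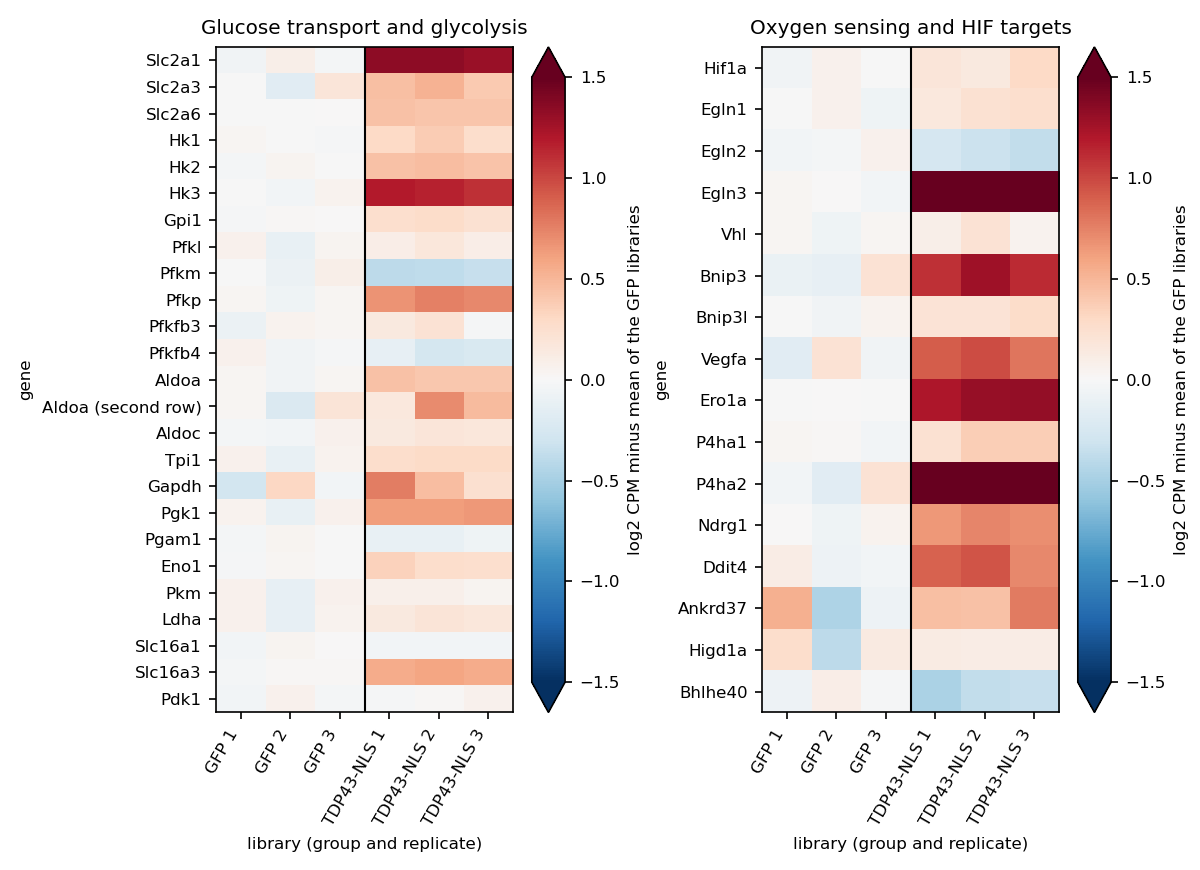
Level of each tested row in each library as log2 CPM minus the mean of the GFP libraries (colour, clipped at 1.5 either way), with GFP libraries left of the line and TDP43-NLS libraries right of it. Egln3 and P4ha2 are beyond the colour range in all 3 TDP43-NLS libraries, and GFP replicate 2 is blue for Tpi1, Pgk1, Pkm, Ldha, Ankrd37 and Higd1a.

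The core letters of the HIF element were common in member promoters, though also in promoters at large. RefSeq promoters were matched for 39 of the 43 symbols, giving 54 promoters. Bhlhe40, Ndrg1, Bnip3l and Slc2a3 had no entry. At least 1 match of ACGTG or GCGTG, on either strand, was found in 44 of the 54 (81.5%), in 61.4% of the promoters of tested genes and in 43.8% of all promoters of the same length in the table. Listed starts of the same gene count as separate promoters, even where they overlap, so the small groups below are not independent. Among member promoters the share was 84.8% (28 of 33) for genes that rose and 87.5% (7 of 8, from 4 genes) for genes that fell. It was 70.0% (7 of 10, from 7 genes) for genes not called. Among all tested genes it was 59.2% for those that rose and 63.5% for those that fell. Base composition differed too: the median GC content was 63.8% in member promoters and 60.3% in those of tested genes, and its part in the difference was not tested. The letters CACGTG, which hold ACGTG, were in 13% of member promoters (7 of 54), 9.96% of those of tested genes and 7.15% of all promoters.

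Related genes outside the 43 were called in both directions, and their counts are to be read beside the 29.3% of all tested genes that rose and the 28.2% that fell. Of 14 other glycolysis genes tested, 5 rose (35.7%) and 4 fell (28.6%), close to those shares, with a median log2 fold change of 0.07. Slc2a4, Slc2a9 and Slc2a8, further genes of the glucose transporter family, rose by 1.79, 0.91 and 0.54 on the log2 scale, all with group means of at most 17.5 CPM. Pgam2, the muscle phosphoglycerate mutase, Pfkfb2 and Tigar, a phosphatase that opposes glycolysis, fell by 0.73, 0.46 and 0.15. Of 10 genes of pyruvate entry into mitochondria, 3 rose (Pdp1 by 1.01, Dld by 0.25 and Pdhb by 0.12) and 4 fell, with a median of -0.14 (30% and 40% of those tested). Dlat, a core subunit of pyruvate dehydrogenase, Pdpr and Pdp2 were among those that fell, by 0.31, 0.28 and 0.19.

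Of 13 other genes of the HIF machinery, 4 rose (30.8%) and 6 fell (46.2%), with a median of 0.00. Arnt2, a partner subunit of HIF alpha, rose from 0.993 ± 0.228 to 8.71 CPM on average (log2 fold change 3.11, adjusted p = 3.2e-09). Cited2, which competes with HIF for a coactivator, rose by 0.64, and Siah2 by 0.23. Rbx1, a component of the VHL ligase, fell by 0.57, the coactivator gene Crebbp by 0.38 and Epas1, the gene of another HIF alpha subunit, by 0.30. Of 30 further HIF targets tested, 18 rose (60%) and 6 fell (20%), with a median of 0.30. Hilpda, a lipid droplet gene, rose by 1.23 and Pdgfb by 1.22, while Bhlhe41, the relative of Bhlhe40, fell by 0.60, Plod1 by 0.34 and Tfrc, the transferrin receptor gene, by 0.27.

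Near-copies of members are also in the count table. Of the copies with enough reads to be tested, Pgk1-rs7 rose by 0.58 on the log2 scale (adjusted p = 1.18e-05), Gapdh-ps16 by 0.77 (adjusted p = 0.000214), Bnip3l-ps by 0.47 (adjusted p = 0.003) and Eno1b by 0.25 (adjusted p = 0.00346). Their parent genes Pgk1, Gapdh, Bnip3l and Eno1 were also called higher. Gapdh-ps15, Pgam1-ps2 and Ldha-ps2 did not pass. Pgk1-rs7 held at most 34.3 CPM and Eno1b at most 62.2 CPM in any library, far below Pgk1 and Eno1, and whether reads were shared between copies and parents was not tested.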

How the data were processed

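Per the labels' protocols, poly(A) RNA was made into libraries with a NEBNext Ultra RNA kit and nothing in them marks strand. The build was GRCm39 and the tools named were Bowtie2 2.2.3, HTSeq 0.6.0 and HISAT2 2.1.0, per the submitters' processing notes. Roles, strand setting and treatment of reads with several matches are not given in the sources used here. The authors deposited whole-number counts for 55359 genes and FPKM values for 25032 of them. The deposited FPKM values are the same counts scaled by depth and 1 length per gene, so they are no separate measurement.

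Counts were tested with edgeR 4.0.16 (filterByExpr at 10 reads and 15 in total, TMM, two-sided quasi-likelihood test, group as the only term, Benjamini-Hochberg adjustment over 13199 genes). Steps and shares were compared by exact permutation of libraries. Counts simulated for this comparison over 13199 genes gave 12 false calls, and the recovery was 72% at a 1.25-fold change, 98% at 1.5-fold and 100% at both 2-fold and 4-fold. Only 50 genes were changed at each fold there, none of them rare, while 57.5% of tested genes were called in the data. The false calls and recovery therefore hold for that setting, and not for the calls above or for rare genes. Members, lists and tests were chosen with earlier results of these data known.

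Values in every library are given for called members with a log2 fold change of at least 0.5 either way, oxygen-sensing members and the most abundant gene of 10 enzyme steps, and were added after being seen for Pfkm, Ldha, Pdk1, Pdk3, Ankrd37, Higd1a and Bhlhe40. Other pathway genes are up to 3 called each way per list, by fold change, at a mean of at least 1 CPM, and 1 gene that this names is not reported here. Alternatives were other scalings, DESeq2 1.42.0, no low-count filter, glmTreat against 0.5, a replicate term, limma 3.58.1 on log2(FPKM + 1) or log2(FPKM + 0.1), and each library left out.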

Additional observations from a re-analysis of the deposited data

How the results depend on the processing

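Under other scalings, DESeq2, no low-count filter and limma and each library left out, the members' counts of higher genes stayed within 14 (limma) to 17 (glycolytic) and 11 to 12 (oxygen sensing and HIF targets). Tested against a log2 fold change of 0.5 with glmTreat, 1221 genes were higher and 744 lower. In that test 4 glycolytic members were higher (Slc2a1, Hk3, Pfkp and Pgk1) and 0 lower, 7 members of the other group were higher (Egln3, Bnip3, Vegfa, Ero1a, P4ha2, Ndrg1 and Ddit4) and 0 lower, and 11 other pathway genes were higher and 0 lower. The 3 glycolytic members called lower ranged from 1 (without GFP replicate 1) to 4 (without GFP replicate 2, where Pdk3 was among those tested). The glycolytic median log2 fold change was 0.25 with limma at either pseudocount. The median of oxygen-sensing genes and HIF targets was 0.30 with limma on log2(FPKM + 1), 0.34 relative to genes within 10 Mb, and 0.33 to 0.52 with a library left out.

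Directions turned for Pfkfb4 (0.0777) and Pgam1 (0.00565) relative to genes within 10 Mb. They turned for Pdk1 with limma (-0.018 at a pseudocount of 1 and -0.0188 at 0.1). With a library left out, Pdk1 ranged from -0.000801 (without GFP replicate 1) to 0.0475 and Higd1a from -0.0805 (without GFP replicate 2) to 0.217. The log2 ratio of the Pkm step ranged from -0.0322 (without GFP replicate 2) to 0.0595. The share of the second Aldoa row differed by -0.00479 percentage points without GFP replicate 2 and by -0.0201 without TDP43-NLS replicate 2, with a highest value of 0.0565, and that of Eno1 by 0.663 with paralogs outside the 43 added. The FPKM values given to limma are scaled by each library's plain total, without TMM factors. Those factors were 1.01 to 1.02 in GFP libraries and 0.985 to 0.990 in TDP43-NLS libraries, so log2 ratios from FPKM lie slightly lower. Beyond this, the cause was not tested, except that added paralogs change the sum itself. The call of Pfkfb4 was lost in 5 of 14 alternatives: glmTreat, DESeq2 (adjusted p = 0.0619), and without GFP replicate 1 (0.0505), TDP43-NLS replicate 2 (0.0734) or TDP43-NLS replicate 3 (0.0587). Calls were gained for Pfkfb3 without TDP43-NLS replicate 3 (adjusted p = 0.0292) and for the second Aldoa row without TDP43-NLS replicate 1 (adjusted p = 0.0468).

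With the replicate number as a block, 3848 genes were higher and 3680 lower, among them 16 and 2 glycolytic members and 12 and 2 of the other group: Pfkl and Pgam1 were lost and Ankrd37 was gained. Same-numbered libraries did not deviate together (correlations across 12087 genes of -0.06, -0.03 and 0.03), so the numbers do not show a pairing. Among the rows found, reads were fewest for Eno2, Pdk3, the second Aldoa row, Ankrd37 and P4ha2, and changes under 1.25-fold were not simulated.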
